A study of Mus musculus with 56 samples.

Results

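The comparison described here is that of sorted astrocytes from young mice without Trem2 (TREM2 -/-, KO) and from young mice with both copies of the gene (TREM2 +/+, WT), across every expressed gene. Its members are the 14 libraries titled as young astrocytes, 7 of each genotype, out of 56 libraries in the series. The mice were females of 2 months, each library came from a mouse of its own, and the KO was homozygous and present in the whole animal. The other 6 groups of 7 libraries are old astrocytes, aged 16 months by the label, and the microglia of both ages and genotypes. Mice were perfused with saline and whole brains were dissociated with a kit. Viable cells carrying the ACSA-2 antigen were then sorted as astrocytes and Cd11b-positive cells as microglia. Strain, targeted allele and housing of the genotypes (littermates or separate colonies) are not given in the labels. The readout was a 3′ tag library from low input, in which each tag marks the end of a polyadenylated transcript. Values are CPM, a gene's count scaled to a common library size, which compare a gene between libraries and carry no length correction.

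Trem2 is a surface receptor for lipids, lipoproteins and cell debris that signals through the adaptor Tyrobp. In the brain it is made by microglia, and astrocytes are not known to rely on it themselves. Astrocytes clear glutamate and potassium from the synaptic cleft, feed neurons with lactate, make cholesterol and carry it outwards on Apoe particles. Injury or signals from activated microglia can turn them reactive, with higher Gfap, Vim, Serpina3n and complement genes. The question the comparison puts to the data is whether a missing microglial receptor is felt by the neighbouring astrocytes at an early age.

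Trem2 itself (ENSMUSG00000023992.14, chromosome 17, 48346401 to 48354147, GRCm38, GENCODE M21) was almost absent from both groups of astrocytes. It held 22 counts over the WT libraries and 21 over the KO libraries, and was at 0 in 1 WT and 3 KO libraries. Levels in WT were 0 CPM at the lowest, 3.55 at the median and 13.7 at the highest. In KO they were 0, 3.88 and 20.6 CPM. Microglia of the same mice held 465 CPM of Trem2 on average with both copies and 99.3 CPM without the gene. The labels could therefore be checked in the microglia and not in the astrocytes. A 3′ tag may also lie outside the deleted part of the gene.

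Total counts ran from 293960 to 849919 in WT (median 571786) and from 296498 to 768611 in KO (median 581936). Total count, genes detected, RNA integrity and the shares of mitochondrial ribosomal RNA and of mitochondrially encoded protein genes did not differ past the threshold between genotypes. The smallest of the 5 exact permutation p was 0.240, for mitochondrial ribosomal RNA, at 17.8 ± 2.81% of counts in WT and 16.0 ± 2.75% in KO (SD, n = 7; adjusted p = 0.857). That test takes the libraries as unpaired. Animal numbers run in sets of 4 with 1 young mouse of each genotype, and the labels do not say what a set shares. Within sets, compared after the data were seen, the mitochondrial ribosomal RNA share was lower in KO in 7 of 7, by 0.336 to 3.33 percentage points. The exact permutation p within sets was 0.0156, the smallest that 7 sets can give, and 0.0781 adjusted over the 5 measures. With this share as a covariate 0 genes were called and 290 had an unadjusted p under 0.05. As 0 genes were called without the covariate too, that count cannot show the part of this share in single fold changes, which was otherwise not tested. Pairs of libraries were as alike between as within genotypes. Over the 2000 most abundant genes the median Spearman correlation was 0.842 for WT with KO, 0.848 for WT with WT and 0.843 for KO with KO. Replicates differed by more than counting error, with a chi-square per degree of freedom of 1.64 to 5.10 over 42 pairs.

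No gene was called between genotypes. Of 7524 genes tested with edgeR, 0 (0.0%) had a Benjamini-Hochberg adjusted p under 0.05, and the smallest adjusted p was 0.879. At an unadjusted p under 0.05 there were 231 genes (3.07%), 95 higher in KO (1.26%) and 136 lower (1.81%). DESeq2 called 0 genes with 217 at an unadjusted p under 0.05, and limma-voom called 0 with 489. The median log2 fold change over all genes was 0.00, and 50.4% of the genes were on the positive side. These calls do not show that the astrocytes were alike, so the size of effect that the data leave possible is given next.

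Each gene has a 95% interval of its fold change, computed from the spread between mice and holding for that gene alone. For 6554 genes (87.1%) the whole interval lay within 2-fold of the WT level in either direction. For 2952 genes (39.2%) it lay within 1.5-fold, and for 272 genes (3.62%) within the tightest bound used, 25% up or the same factor down. The median half-width was 0.49 on the log2 scale, a factor of 1.41. The width differed with level. Genes under 25 CPM had a median half-width of 1.57-fold and 2.00% of them were bounded within 1.5-fold. From 50 to 100 CPM the values were 1.31-fold and 65.0%, and from 200 to 500 CPM they were 1.21-fold and 88.7%. Above 500 CPM, 123 of 145 genes (84.8%) were bounded within 1.5-fold and 139 within 2-fold.

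**Figure D1:**
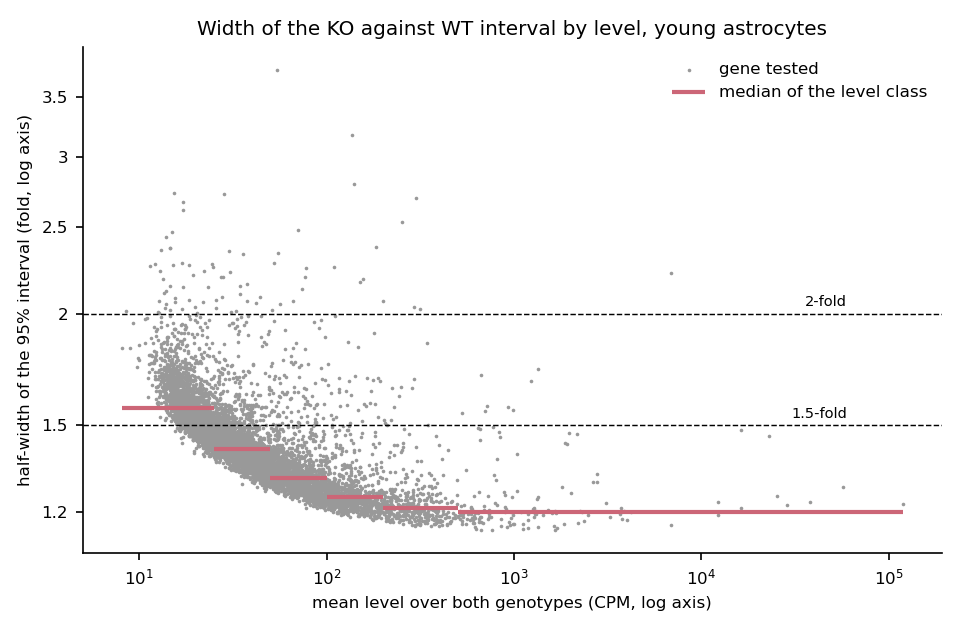
Half-width of the 95% interval of the KO over WT fold (log axis) against mean level in CPM (log axis) for the 7524 genes tested, with the median of each level class as a bar and dashed lines at 1.5-fold and 2-fold. The medians step down from 1.57-fold under 25 CPM to 1.199-fold at 500 CPM and above, and a scatter of genes lies far above its class.

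The fold changes themselves were small. The median absolute log2 fold change was 0.15. It exceeded 1 in 9 genes, and the fold exceeded 1.5 in either direction in 202. Over 5701 genes tested in both sorts of cell, the median half-width was 0.47 in young astrocytes and 0.39 in young microglia (log2). Within 1.5-fold were 44.0% of these genes in astrocytes and 56.5% in microglia. Intervals that left out 0 made up 2.72% in astrocytes and 6.09% in microglia. In old astrocytes, with the same number of libraries, 34.5% of the 7524 genes were bounded within 1.5-fold.

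The genes that mark an astrocyte were among the better bounded ones. Of 22 astrocyte identity genes tested, 0 reached an unadjusted p under 0.05, 14 had a positive log2 fold change and the median was 0.02. All 22 intervals lay within 2-fold and 18 (81.8%) within 1.5-fold, against 39.2% of all genes. The list had a median level of 937 CPM, against 38.9 CPM over all genes. At 500 CPM and above, 84.8% of genes lay within 1.5-fold. Slc1a2, the main glutamate transporter of the forebrain (chromosome 2, 102658659 to 102790784), had 5922, 6922 and 7559 CPM in WT at the lowest, median and highest library. In KO the same values were 5901, 6829 and 7919 CPM. The groups lay over each other, and the log2 fold change was 0.02 ± 0.11, with an interval of 0.876 to 1.18 of the WT level. Sox9, a transcription factor of the astrocyte lineage, had the smallest unadjusted p of the list, 0.0923. It stood at 1200 ± 228 CPM in WT and 1441 ± 272 in KO (SD, n = 7), and its interval ran from 0.969 to 1.49 of the WT level.

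Glutamate and GABA handling was bounded in much the same way, with 13 of 15 genes within 1.5-fold, 12 positive and a median of 0.06. Glul, the enzyme that turns glutamate into glutamine, was at 4204 ± 531 CPM in WT and 4232 ± 548 in KO, with an interval of 0.838 to 1.21. Slc1a3, the second astrocytic glutamate transporter, ran from 1837 to 3622 CPM in WT (median 2237) and from 2032 to 4062 CPM in KO (median 3214). Its groups overlapped with the KO median higher, and its log2 fold change of 0.30 ± 0.18 left folds of 0.9504 to 1.6003 possible. Potassium, water and gap junction genes had 13 of 17 members within 1.5-fold and a median of 0.02. Aqp4, the water channel of the end-feet, had 1062, 1138 and 1864 CPM in WT and 1043, 1330 and 1731 CPM in KO (lowest, median, highest). Its interval was 0.844 to 1.22. Slc4a4, a bicarbonate transporter, had an interval of 0.774 to 1.103. Atp1b2, whose protein carries the antigen used for the sort, was at 1977 ± 294 CPM in WT and 1974 ± 387 in KO. Gja1, the main gap junction protein, had the widest interval here, 0.785 to 1.95.

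**Figure D2:**
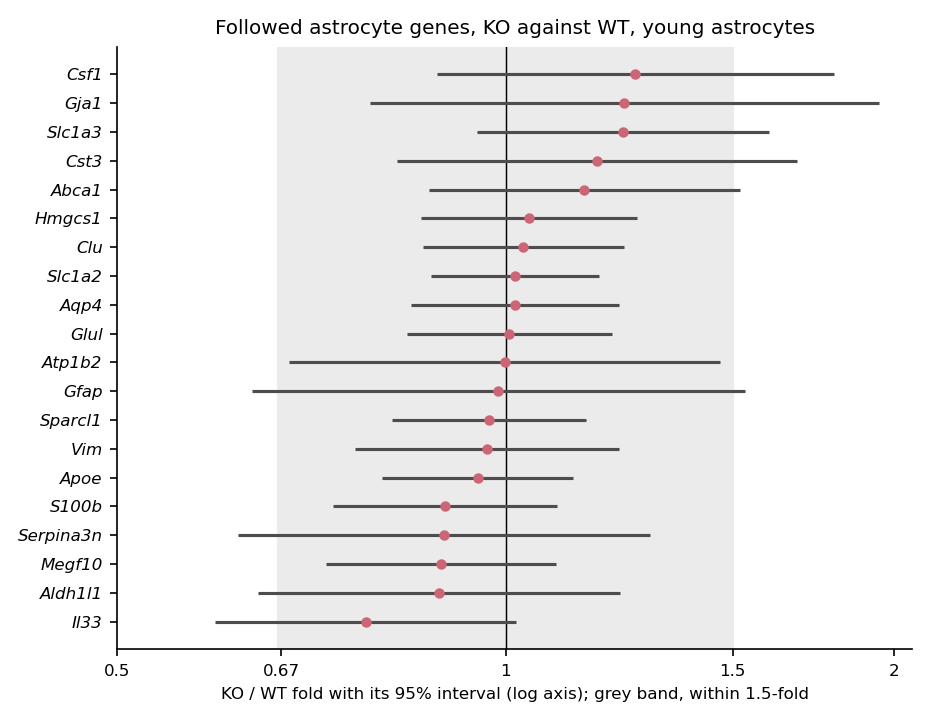
KO over WT fold (points, log axis) with its 95% interval (lines) for the 20 followed genes that were tested in young astrocytes; the grey band marks 1.5-fold either way. All 20 intervals include a fold of 1, and those of Slc1a2, Glul, Apoe and Sparcl1 are among the short ones while those of Gja1, Csf1 and Gfap reach outside the band.

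Lipid genes were looked at closely because Trem2 is a lipid receptor. Of 21 cholesterol synthesis genes, 0 had an unadjusted p under 0.05, 13 were positive and the median was 0.06. Hmgcs1, which makes the first committed precursor, was at 309 ± 27.4 CPM in WT and 322 ± 45.8 in KO, and its interval was 0.860 to 1.27. Msmo1, a later enzyme of the pathway, was bounded between 0.899 and 1.253, and Srebf2, the transcription factor that switches the pathway on, between 0.807 and 1.14. In all 13 members lay within 1.5-fold and 19 within 2-fold. Srebf1, the factor for fatty acid synthesis, reached farthest, to 2.35-fold, and Fdft1 had the largest fold change, 0.45 ± 0.29 on the log2 scale.

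Of 18 genes for lipid transport and storage, 10 were positive, the median was 0.05, 9 lay within 1.5-fold and all 18 within 2-fold. Apoe, the main lipoprotein of the brain (chromosome 7, 19696109 to 19699188), had 2777, 3385 and 3955 CPM in WT and 2770, 3028 and 3959 CPM in KO. The 2 groups spanned the same range. Its log2 fold change was −0.07 ± 0.12 and its interval 0.803 to 1.13. Clu, a second lipoprotein and chaperone, was bounded between 0.862 and 1.24, and Abca1, the pump that loads cholesterol onto Apoe, between 0.872 and 1.52. Apod, a lipocalin, had the largest fold change of the list. It had 754, 909 and 1123 CPM in WT and 545, 648 and 1012 CPM in KO. In KO 6 libraries lay below the lowest WT library and 1 inside the WT range, and the log2 fold change was −0.43 ± 0.23 (unadjusted p = 0.0654). Fatty acid oxidation had 19 genes tested, 13 positive and a median of 0.04. Glycolysis and glycogen had 6 of 18 positive and a median of −0.06, with Aldoc, the astrocytic aldolase, at 3876 ± 497 CPM in WT and 3698 ± 415 in KO.

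Markers of reactivity did not separate the genotypes, and several were too rare to be tested. Gfap, the intermediate filament of reactive astrocytes (chromosome 11, 102887336 to 102900912), had 22.4, 42.1 and 73.7 CPM in WT and 21.1, 32.8 and 64.0 CPM in KO. The groups overlapped fully and the log2 fold change was −0.02 ± 0.31. At that low level the interval still allowed 0.636 to 1.53 of the WT level. Vim, a filament that rises with Gfap, had 105, 162 and 189 CPM in WT and 70.0, 167 and 179 CPM in KO. Its interval was 0.764 to 1.23. Serpina3n, a protease inhibitor of inflamed astrocytes, had 24.6, 27.3 and 46.4 CPM in WT and 19.1, 25.7 and 42.7 CPM in KO. The ranges overlapped, with an interval of 0.621 to 1.29.

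Of 13 pan-reactive genes, 5 passed the filter on low counts, and of the A1 and A2 reactive lists 3 of 13 and 2 of 12. None of these 10 had an unadjusted p under 0.05. C4b, C3 and Lcn2, induced in strongly reactive astrocytes, were under the filter. C4b held 16 counts over the WT libraries and 28 over the KO libraries. C3 held 6 and 2, and Lcn2 held 2 and 0. These 3 genes were not tested, and counts this low leave small differences out of reach. Among 12 disease-associated astrocyte genes the median was −0.04 and 4 were positive. Cst3, a secreted protease inhibitor, had the largest fold change of that list, at 1755 ± 445 CPM in WT and 2062 ± 560 in KO.

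Signals from astrocytes to microglia came next. Il33, a nuclear cytokine released by astrocytes that acts on microglia, had 73.7, 110 and 130 CPM in WT and 47.4, 86.0 and 123 CPM in KO. Its groups overlapped with KO lying lower, and the log2 fold change was −0.36 ± 0.19 (unadjusted p = 0.0662), which leaves 0.596 to 1.019 of the WT level possible. Csf1, the growth factor on which microglia depend, had 17.2, 21.1 and 41.5 CPM in WT and 18.97, 31.1 and 41.1 CPM in KO, with an interval of 0.884 to 1.80. Cxcl14, a chemokine, was at 285 ± 55.4 CPM in WT and 291 ± 36.3 in KO. In this list 7 genes were tested, 4 lay within 1.5-fold and 7 within 2-fold. Of 11 cytokine receptor genes 0 had an unadjusted p under 0.05, with the largest fold change in Ifngr1, the interferon gamma receptor, at −0.39 ± 0.23. Cntfr and Il6st, receptor chains for ciliary neurotrophic factor and interleukin 6, had intervals of 0.756 to 1.32 and 0.934 to 1.38.

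Across all 26 lists, 301 genes were tested and 4 had an unadjusted p under 0.05, beside 3.07% of all genes. Itgb5 and Itgav, partner chains of the integrin that binds apoptotic cells through Mfge8, lay on opposite sides of 0, at log2 fold changes of 0.58 ± 0.20 and −0.32 ± 0.16. Mfge8 itself was at 599 ± 109 CPM in WT and 624 ± 64.8 in KO. The other 2 were Bhlhe40, a repressor in the circadian clock (0.41 ± 0.19), and Cox7c, a small subunit of cytochrome oxidase (0.65 ± 0.28). Mertk and Megf10, engulfment receptors of astrocytes, were bounded at 0.746 to 1.07 and 0.726 to 1.09. Of the 301, 165 (54.8%) lay within 1.5-fold and 268 (89.0%) within 2-fold.

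Of the longer lists, the interferon-stimulated and immediate early genes were the least bounded. Among short lists, 0 of 3 A1 and 0 of 2 A2 genes lay within 1.5-fold. Within 2-fold lay 1 of 3 complement genes and 2 of 5 genes of Trem2 signalling and microglial state. Interferon-stimulated genes had 2 of 14 members within 1.5-fold and 8 within 2-fold, with a median of −0.04. Their largest fold change was in Rsad2, an antiviral enzyme, at 16.9 ± 7.16 CPM in WT and 11.2 ± 6.45 in KO. Immediate early genes, which also respond to dissociation, had 1 of 15 within 1.5-fold, 11 positive and a median of 0.18. With each library left out in turn, that median ran from 0.01 to 0.29. Of 4 MHC class I genes 1 was positive, and B2m, the shared light chain, was bounded between 0.819 and 1.23. Better bounded were oxidative phosphorylation, with 19 of 27 genes within 1.5-fold and a median of 0.06, and ribosomal proteins, with 10 of 14 and a median of −0.07. Ndufa1, a subunit of complex I, had the interval that reached farthest among the oxidative phosphorylation genes, to 3.27-fold.

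**Figure D3:**
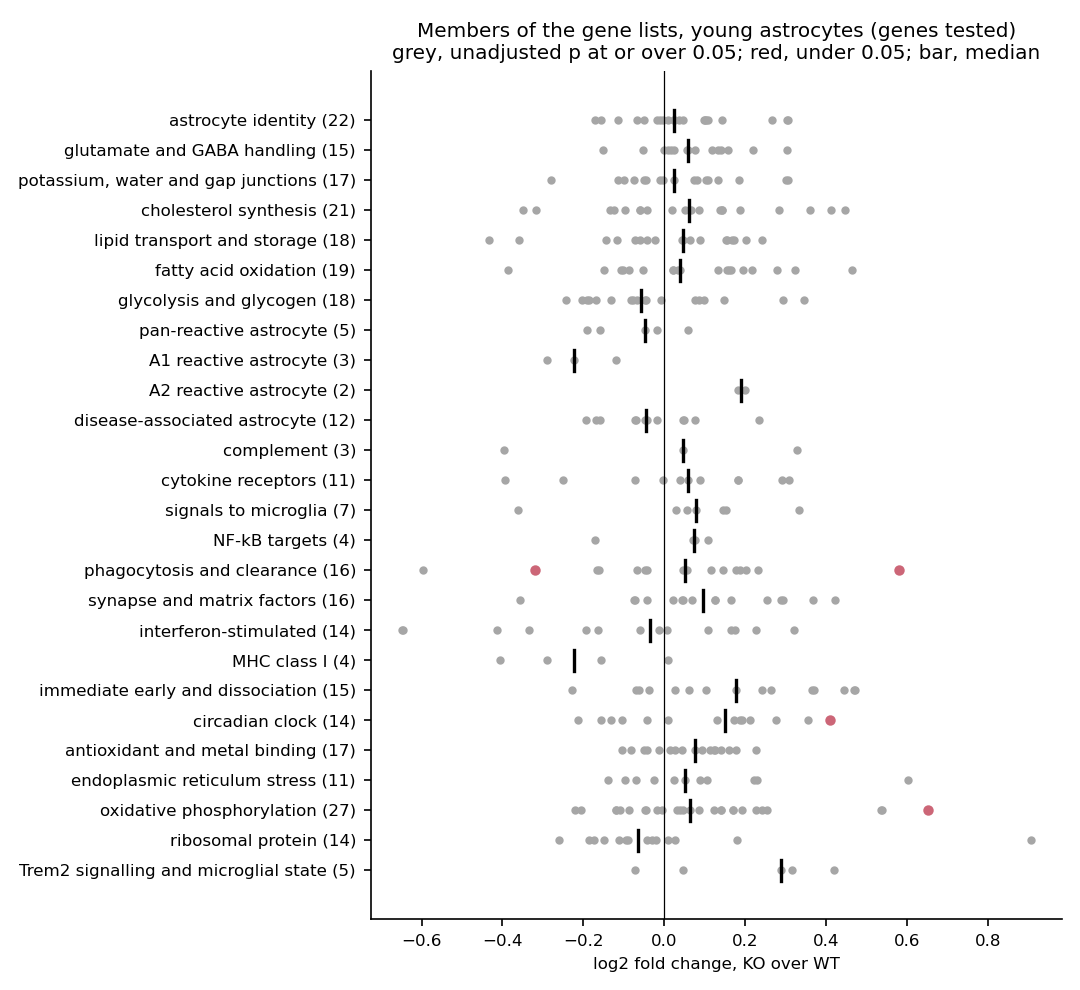
Log2 fold change (KO over WT) of each tested member of the 26 gene lists (points, number tested in brackets; red, unadjusted p under 0.05) with the list median as a bar. The medians lie between −0.22 and 0.29, and 4 points are red.

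The genes with the smallest unadjusted p are named as the edge of what was seen, since none passed the adjusted threshold. Tyw5 (chromosome 1, 57388237 to 57407101), an enzyme of transfer RNA modification, had 10.7, 14.7 and 22.3 CPM in WT and 25.7, 33.2 and 47.9 CPM in KO. Every KO library lay above every WT library. The means were 15.8 ± 4.05 and 34.6 ± 8.61 CPM (SD, n = 7) and the log2 fold change was 1.12 ± 0.27, with an edgeR adjusted p of 0.879. Slc8b1, the sodium and calcium exchanger of mitochondria (chromosome 5, 120511168 to 120534024), had 6.87, 13.6 and 19.9 CPM in WT and 16.6, 22.3 and 40.3 CPM in KO. The groups overlapped at their edges, and the log2 fold change was 1.04 ± 0.28. Irx2, a homeobox factor, had 11.1 ± 4.22 CPM in WT and 22.8 ± 4.09 in KO, and Ap1m1, a clathrin adaptor subunit, 13.4 ± 5.77 and 26.6 ± 7.31. Itgb5 had 27.3, 37.3 and 63.5 CPM in WT and 48.4, 63.4 and 80.6 CPM in KO, and 3 KO libraries lay above the highest WT library. Dapk1, a death-associated kinase, ranged in KO from 26.9 to 102 CPM around a median of 65.7, and 5 KO libraries lay above the highest WT library.

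On the lower side, Mast4, a microtubule-associated kinase (chromosome 13, 102732486 to 103334497), had 147, 203 and 256 CPM in WT and 107, 144 and 159 CPM in KO. In KO 4 libraries lay below the lowest WT library, and the log2 fold change was −0.52 ± 0.14. Mast4 was also the best bounded of these 12 genes, at 0.575 to 0.850 of the WT level. Tmem132b, a membrane protein gene (chromosome 5, 125531774 to 125792583), had 39.1, 56.8 and 73.7 CPM in WT and 14.7, 35.6 and 43.2 CPM in KO, at −0.77 ± 0.21. Syne2, which links the nucleus to the cytoskeleton, had 70.2 ± 14.4 CPM in WT and 44.2 ± 9.43 in KO. Lpgat1, a lysophospholipid acyltransferase, had 29.7 ± 14.5 and 13.8 ± 7.21 CPM. Dnajc18, a co-chaperone, had 67.3 ± 18.1 and 39.5 ± 6.10 CPM. Rcan2, an inhibitor of calcineurin, had 33.1, 46.4 and 66.96 CPM in WT and 27.4, 30.2 and 37.9 CPM in KO, and its groups overlapped.

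**Figure D4:**
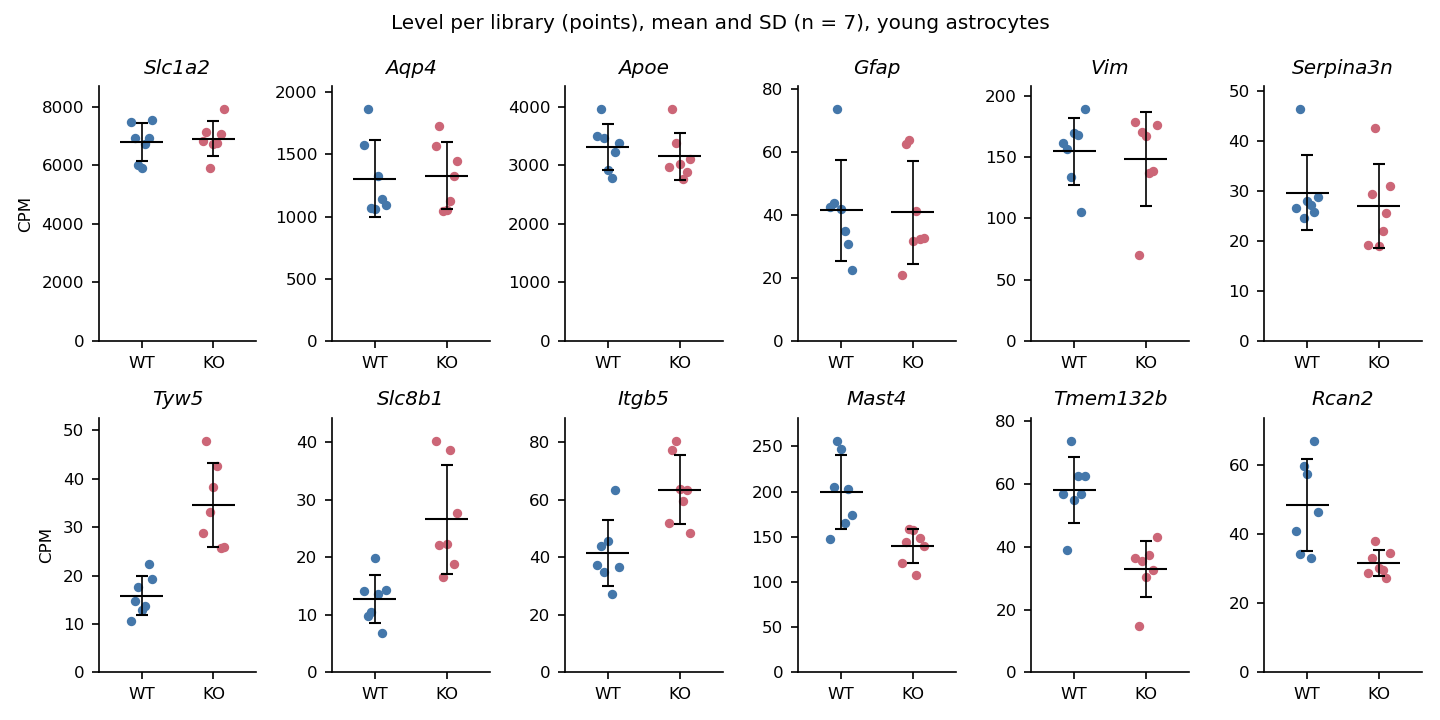
Level in CPM of 12 genes in each young astrocyte library (points; WT blue, KO red) with mean and SD as bars, n = 7 per genotype. In the upper row, of astrocyte and reactive genes, WT and KO points cover each other; in the lower row, of genes with small unadjusted p, they part fully in Tyw5 and partly in the others.

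In 5 of 7524 genes (0.0665%) the 7 KO and 7 WT libraries did not overlap. Tyw5 was the 1 gene (0.0133%) with every KO library above, and Dnajc18, Ncald, Rcl1 and Rnf216 were the 4 (0.0532%) with every KO library below. Ncald, a neuronal calcium sensor, had 65.7, 76.9 and 103 CPM in WT and 50.4, 57.3 and 62.2 CPM in KO. Rnf216, a ubiquitin ligase, was at 44.4 ± 4.95 CPM in WT and 31.0 ± 3.95 in KO. Rcl1, a nucleolar factor for ribosome assembly, was at 20.4 ± 6.12 and 11.5 ± 1.83 CPM. Their log2 fold changes were −0.53 ± 0.17, −0.51 ± 0.20 and −0.82 ± 0.29, and all 5 genes had an edgeR adjusted p of 0.879 or 0.999. These 3 were singled out after their values were seen.

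Some abundant genes had wide intervals for their level, and several of them varied together. Among genes above 500 CPM, those with intervals reaching beyond 2-fold included S1pr1, Cspg5, Slc39a12 and Id4, which followed the component described next, and Ptgds, which did not. S1pr1, a sphingosine phosphate receptor of astrocytes, had 627, 1063 and 1692 CPM in WT and 836, 1664 and 2250 CPM in KO. Id4, an inhibitor of differentiation factors, had 429, 593 and 1236 CPM in WT and 460, 1002 and 1202 CPM in KO. Atp5j, a subunit of ATP synthase, had 31.8, 151 and 561 CPM in WT and 40.5, 465 and 620 CPM in KO. F3, the tissue factor of coagulation, had 15.5, 44.0 and 319.6 CPM in WT and 14.2, 149.7 and 309 CPM in KO. Libraries of both genotypes lay at the bottom and at the top in Id4, Atp5j and F3, while in S1pr1 the 3 highest libraries were KO and the 2 lowest WT. The 4 genes were chosen after their values were seen.

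The leading component of the spread within groups, taken over all 28 astrocyte libraries, held 26.1% of that spread, and the next held 7.58%. Its score, in units of the SD over the 28 libraries, ran from −0.74 to 0.79 in WT and from −1.21 to 1.05 in KO, and was below 0 in 3 WT and 2 KO libraries. The means were 0.11 and 0.31, with an exact permutation p of 0.591, and of 0.453 within the number sets. Below 0 lay WT mice 5, 9 and 21 and KO mice 6 and 10. Total counts were 450001 and 293960 in WT mice 5 and 9, and 296498 and 410466 in KO mice 6 and 10. All other young astrocyte libraries had higher counts, with 571786 in WT mouse 21. RNA integrity was 9.8, 7.9 and 9.6 in WT mice 5, 9 and 21, and 8.2 and 8.9 in KO mice 6 and 10. The part of depth or RNA integrity in the component was not tested. The genes with the heaviest weight included Usmg5 and Atp5j of ATP synthase, Ndufa1, Snx3, a sorting nexin, and F3. With the score as a covariate, chosen after the data were seen, 0 genes were called. The smallest adjusted p was then that of Tyw5, 0.407, and 328 genes had an unadjusted p under 0.05. Genes bounded within 1.5-fold numbered 3674 (48.8%) and within the tightest bound 555 (7.38%). Because the score came from these same counts, a gain in bounded genes was built in.

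Fitted with the score, several variable astrocyte genes had smaller fold changes and narrower intervals. The score was computed from the same counts, so narrower intervals in genes that follow it were built in. It also keeps any genotype difference along the component, and so can take up part of their fold changes. Gja1 went from a log2 fold change of 0.31 ± 0.32 to 0.18 ± 0.12, and its interval from 0.785 to 1.95 narrowed to 0.955 to 1.34. Srebf1 went from 0.28 ± 0.46 to 0.02 ± 0.15, with an interval of 0.821 to 1.2495 in place of 0.632 to 2.35. Cst3 came to lie between 0.954 and 1.27, Apoe between 0.858 and 1.11, Clu between 0.943 and 1.202 and Gfap between 0.767 and 1.45. Of these, Cst3 and Apoe had smaller fold changes with the score. The log2 fold change of Clu went from 0.05 to 0.09 and that of Gfap from −0.02 to 0.08. Atp5j went from 0.77 to 0.46. Il33 moved away from 0, to −0.44 ± 0.16 with an interval of 0.592 to 0.915 and an edgeR adjusted p of 0.9999. Slc1a3, at 0.25 ± 0.12, had an interval of 1.01 to 1.40 that left out 1. Nr1d1, of the circadian clock list, went from 0.36 ± 0.23 to 0.42 ± 0.18. Both had an edgeR adjusted p of 0.9999. Id4 had a log2 fold change of 0.34 ± 0.11, with an edgeR adjusted p of 0.964.

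**Figure D5:**
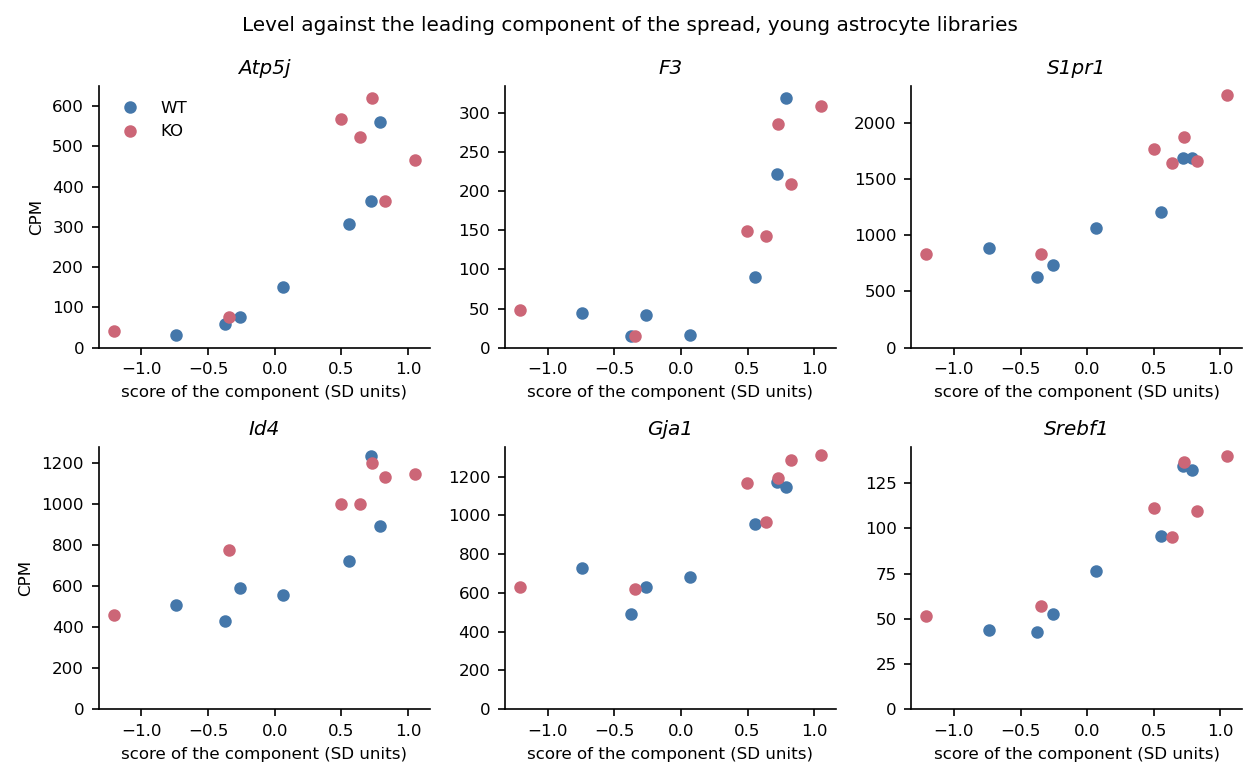
Level in CPM of 6 genes in the 14 young astrocyte libraries (WT blue, KO red) against the library's score on the leading component of the spread within groups, in SD units. The genes climb with the score in both genotypes, and 3 WT and 2 KO libraries lie below a score of 0. The score was computed from the same counts, which include these genes.

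The sort was checked against markers of its own and of other cells. Astrocyte identity genes summed to 44487 ± 3174 CPM in WT and 45265 ± 2927 in KO, beside 2996 and 3486 CPM in the microglia of the same mice. Oligodendrocyte markers were the most abundant of the others, at 2873 to 14742 CPM in WT and 3039 to 16592 in KO, and 11 of 12 passed the filter with 1 positive and a median of −0.22. Bergmann glia markers summed to 1775 ± 180 and 1636 ± 257 CPM, and choroid plexus markers to 798 ± 287 and 687 ± 137. Neuron markers summed to 556 ± 158 and 516 ± 155 CPM, ependymal markers to 369 ± 117 and 369 ± 105, and mural markers to 189 ± 64.3 and 143 ± 27.5. Genes tested numbered 11 for microglia, 11 for oligodendrocytes, 5 for their precursors, 8 for neurons, 3 for neuroblasts and 1 for endothelium. The mural and fibroblast lists had 3 each, ependymal 7, choroid plexus 3 and Bergmann glia 7. Over the 16 lists of other cells 0 genes were called and 3 had an unadjusted p under 0.05, beside 3.07% of all genes. They were Syt1 of 8 neuron genes tested, Vtn of 3 mural and Gria4 of 7 Bergmann glia genes, each lower in KO. The border macrophage, red cell, neutrophil, T and NK cell and B cell lists had no member past the filter, so they could give no call. Red cell markers ran from 1.601 to 136 CPM in WT and from 4.78 to 44.2 in KO. Ltf and Ly6g of neutrophils and Cd3e and Cd3g of T cells were at 0 in all 14 libraries. In a bulk sort, fewer cells of a type and less RNA per cell cannot be told apart. The part of these other cells in the fold changes was not tested for each list. With the oligodendrocyte, neuron or microglia level as a covariate 0 genes were called. As 0 were called without a covariate too, that count cannot show the part of these cells.

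Microglial RNA was present in the astrocyte sort at a low level. Microglia markers summed to 501, 717 and 1945 CPM in WT and 486, 1049 and 2044 CPM in KO, at 2.20% of their level in sorted microglia. Cx3cr1, the fractalkine receptor, was at 167 CPM in WT and 232 in KO astrocytes, beside 10888 and 10090 in microglia. P2ry12, a purine receptor of resting microglia, had a log2 fold change of 0.42 ± 0.47 and Csf1r, the receptor for Csf1, of 0.32 ± 0.55. Of 11 microglia markers tested, 10 were positive and 0 had an unadjusted p under 0.05. Clec7a, which was called lower in KO microglia (log2 −1.27 ± 0.18, edgeR adjusted p = 2.98e-05), held 6 counts over the WT and 7 over the KO astrocyte libraries. Its effect cannot be read in astrocytes.

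Genes next to Trem2 were listed because a targeted locus can carry differences in its neighbours. Within 10 Mb on chromosome 17 the table holds 214 genes with a matched position, of which 35 were tested and 0 called. Genes whose identifier had no match are not counted. Of the 35, 12 were positive and the median log2 fold change was −0.07, beside 50.4% and 0.00 over all genes. Within 5 Mb, 10 of 21 were positive and the median was −0.00. Rcan2 (43801351 to 44039516) and Mydgf (56175744 to 56183920), a growth factor from myeloid cells, were the 2 with an unadjusted p under 0.05, both lower in KO. Treml2, which lies in the Trem gene cluster but had no matched position and is not among the 214, held 2 counts over the WT and 11 over the KO astrocyte libraries.

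The effect in young mice was set against that in old mice, from other animals. The interaction of genotype and age had 0 of 7524 genes called (0.0%), 300 at an unadjusted p under 0.05 (3.99%) and a smallest adjusted p of 0.398. That gene was Igfbp4, which binds insulin-like growth factors (chromosome 11, 99041244 to 99054392). In young mice it had 91.3, 103 and 147 CPM in WT and 54.8, 78.0 and 99.8 CPM in KO, and 5 KO libraries lay below the lowest WT library. The effect on the log2 scale was −0.54 ± 0.21 for young astrocytes and 0.82 ± 0.21 for old ones, a difference of 1.36 ± 0.30. With limma-voom (adjusted p = 0.00607), with no filter on low counts (edgeR adjusted p = 0.00108) and with sets of animal numbers as a covariate (edgeR adjusted p = 0.0223) Igfbp4 was called.

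Across all genes 51.6% had the same sign in young and old mice. At an unadjusted p under 0.05 were 231 genes in young and 366 in old astrocytes (4.86%), and 18 of them in both, 8 of these with the same sign. The 8 were Rcan2, Rcl1, Pde7b, Rbbp5, Srcin1, Abcb9 and Ttl, all lower in KO, and Polr3f, higher. Rcan2 had −0.63 ± 0.19 in young and −0.46 ± 0.19 in old mice. Rcl1 had −0.82 ± 0.29 and −0.82 ± 0.28, and Polr3f, a subunit of RNA polymerase III, 0.59 ± 0.24 and 0.60 ± 0.25. Each of these genes had an edgeR adjusted p of 0.992 in old and 0.999 in young mice. In microglia of the same young mice Rcl1 had −0.78 ± 0.25, Rbbp5 −0.42 ± 0.20 and Polr3f 0.21 ± 0.19. Their edgeR adjusted p there were 0.697, 0.754 and 0.855, and the rest of the 8 genes were not tested in microglia. Tyw5 had −0.06 ± 0.27 in old astrocytes, where its young value was 1.12. The difference had an unadjusted p of 0.00341 and an edgeR adjusted p of 0.99999.

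The young effect was last set against that in microglia of the same mice. In the microglia's own fit 3 of 7512 genes were called (0.0399%), which were Trem2, Clec7a and Cd34, and 480 had an unadjusted p under 0.05 (6.39%). The interaction of genotype and cell type had 0 of 9434 genes called (0.0%), 388 at an unadjusted p under 0.05 (4.11%) and a smallest adjusted p of 0.802. Trem2, near 0 in astrocytes, was not called in it either. With the animal as a replicate block 1 gene was called, Grn, the lysosomal growth factor progranulin (chromosome 11, 102430315 to 102437048). Its log2 difference between cell types was 1.15 ± 0.22 with the block (edgeR adjusted p = 0.0258) and 1.18 ± 0.39 without it (adjusted p = 0.9999).

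In young astrocytes Grn had 27.3, 35.1 and 52.6 CPM in WT and 40.3, 59.5 and 95.8 CPM in KO, and 4 KO libraries lay above the highest WT library. Its log2 fold change was 0.72 ± 0.35 there, and −0.47 ± 0.21 in microglia, where its level was 889.5 CPM in WT and 639 in KO. Itgb5, second in the fit without the block, had a difference of 0.84 ± 0.21, with 628 ± 37.6 CPM in WT and 520 ± 75.2 in KO microglia. Csf1 had 0.33 ± 0.25 in astrocytes and −0.92 in microglia, at an edgeR adjusted p of 0.9999 for the difference. The astrocyte sort also held microglia markers at 2.20% of their level in sorted microglia, with 10 of 11 tested markers positive in KO. Grn and Itgb5 are far more abundant in microglia, and the part of such RNA in their differences between cell types was not tested.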

How the data were processed

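Single 3′ tag libraries of sorted cells were counted per gene, and the deposited values are raw counts per gene, without normalization. The submitters' processing notes name the build GRCm38.p6 and list STAR, R 3.4.3, MultiQC and FastQC 0.11.5. How tags were counted, on which annotation, and whether molecular identifiers were merged is not stated in the sources used, so counts may hold copies of 1 molecule. Of 53801 gene identifiers, 51550 matched GENCODE M21, which gave positions.

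From these counts edgeR 4.0.16 in R 4.3.3 (TMM scaling, its default filter on low counts, robust quasi-likelihood fit) was fitted to the 28 astrocyte libraries with 1 mean for each genotype and age. The contrast was young KO minus young WT, with Benjamini-Hochberg adjustment over 7524 genes and a threshold of 0.05. Log2 fold changes are given ± standard error, levels ± SD. Intervals are Wald intervals at 95% for each gene and are not simultaneous. Interactions used the astrocyte libraries (age) and all 56 libraries (cell type). The fit with the animal as a replicate block used the young libraries of both sorts alone. Alternatives were DESeq2 1.42.0, limma 3.58.1 with voom, other scaling, no filter, young libraries only, covariates, and each library left out.

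Each mouse gave both sorts, by the animal numbers in the labels. Deviations of the astrocytes and microglia of 1 mouse had a median correlation of 0.0922 over 14 mice, from −0.107 to 0.245, and 0.00903 for different mice.

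Genes named are those called, the 6 with the smallest p in each direction at a mean log2 CPM of at least 3, 25 followed genes, the 8 narrowest intervals, and in each list the 3 highest, the largest fold change and the farthest interval. The comparison, the members and the gene lists were chosen with earlier results of these data known. Lists are described by counts and medians, with no test of a list.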

Additional observations from a re-analysis of the deposited data

Results flagged for a closer look

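In 11 of 124 groups of 7 libraries examined, 1 library stood apart from the others by Dixon's test at the 95% level, where chance gives about 5% of groups. Among genes, the WT mouse 9 had 73.7 CPM of Gfap with the next library at 44.0, and the WT mouse 5 had 46.4 CPM of Serpina3n with the next at 28.8. The KO mouse 6 had 70.0 CPM of Vim, with the next at 137, and the KO mouse 18 had 14.2 CPM of Irx2, with the next at 22.3.

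The other 7 were summed marker levels of other cells. WT mouse 9 had 888 CPM of neuron markers (next 591) and 326 CPM of mural markers (next 195). WT mouse 21 had 49.8 CPM of border macrophage markers (next 28.1), and WT mouse 1 had 1397 CPM of choroid plexus markers (next 859). KO mouse 10 had 202 CPM of mural markers (next 155) and 187 CPM of fibroblast markers (next 139). KO mouse 22 had 41.1 CPM of neutrophil markers (next 14.7).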

How the results depend on the processing

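In young astrocytes 0 genes were called under all 14 alternatives and with any 1 library left out. Genes at an unadjusted p under 0.05 numbered 489 with limma-voom, 1083 with no filter, 371 with sets of animal numbers and 372 with the oligodendrocyte level as a covariate, against 231, and 184 to 278 with 1 library left out. Genes within the tightest bound (25%) numbered 515 with limma-voom, 447 with number sets, 431 with the oligodendrocyte level and 433 in young libraries alone, against 272. With the score of the leading component, added after seeing the data, they numbered 555, and with 1 library left out 168 to 209. That count was 178 without the KO mouse 10, 168 without the KO mouse 14, 176 without the WT mouse 1, 169 without the WT mouse 17 and 178 without the WT mouse 25.
Within 1.5-fold lay 2565 to 2826 genes with 1 library left out and 2867 to 3674 under the other alternatives, and within 2-fold 6319 to 6547 and 6197 to 7452. Of 123 named genes 44 had a change of sign in at least 1 of 28 settings, 2 moved by more than their standard error and 0 passed the threshold. The medians of 12 of 26 lists changed sign in at least 1 setting. For the interaction with age, 1 gene was called with limma-voom, with no filter and with number sets, and 1130 had an unadjusted p under 0.05 with no filter. For the interaction with cell type 1 gene was called with the animal as a replicate block, and with no filter 1025 had an unadjusted p under 0.05. Both counts with no filter are over many more genes than the main fits tested. With the block, fitted to the young libraries alone, no other gene was called. Counts of a few tags per library limit genes under 25 CPM.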
